A study of Homo sapiens with 12 samples.

Results

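IL22 is the gene of interleukin 22, a secreted cytokine. Its probes were followed through 12 Illumina BeadChip arrays of L-540, an established cell line derived from Hodgkin lymphoma and grown in culture. Both array probes whose platform gene symbol is exactly IL22 were taken, which makes 2 of the 28098 probes that carry 1 gene symbol and 2 of all 48803 probes, for 1 of 18852 genes. The gene was chosen with its values in these arrays known, so its levels and differences are a description and carry no test.

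The arrays form 4 groups of 3, and all groups share the cell line and the 24 h time point. The combination group received 10 µM perifosine and 5 µM sorafenib, the perifosine group 10 µM perifosine alone, the sorafenib group 5 µM sorafenib alone, and the control group no drug. Perifosine is a lipid-like drug directed at AKT signalling, and sorafenib is an inhibitor of RAF, VEGF receptors and other kinases. The model is 1 cell line, and the labels do not say whether arrays A, B and C of a group are separate cultures. P-values therefore cover only how these arrays scatter, and part of that scatter may be technical.

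Interleukin 22 belongs to the interleukin 10 family. T helper cells, innate lymphoid cells and natural killer cells secrete it, and epithelial and other non-haematopoietic cells respond through a receptor of IL22RA1 and IL10RB, which signals through JAK1, TYK2 and STAT3. In lymphocytes the gene is switched on by cytokines such as interleukins 6, 21 and 23 and by transcription factors that include AHR and BATF.

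The array medians lay between 404.3 and 648.7 deposited intensity units, and 9291 to 11657 probes per array were detected above the negative-control beads. Combination array B stood apart: its median was the highest, its number of detected probes the lowest, and its weight in limma was 0.291, where the other 11 arrays had weights of 0.664 to 1.69. Of the markers of lymphoid cells, CD2, CD4, CD247 and NKG7 were detected on all 3 control arrays, whereas CD3D, CD3E and CD3G, which encode the CD3 chains of the T cell receptor complex, and CD5, CD7, CD8A, GNLY and KLRB1 were not detected on any of the 12 arrays. TNFRSF8 (CD30), FUT4 (the enzyme of the CD15 epitope), FSCN1 and CD70 of the Hodgkin and Reed-Sternberg markers were detected on all arrays, CCL17 and CCL22 on none, and IRF4 did not pass the detection filter. Of the B cell markers, BLK was detected on all arrays, and CD79A, CD79B, MS4A1 and PAX5 on none. No epithelial marker (EPCAM, KRT8, KRT18 and KRT19) was detected on any array.

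RefSeq places IL22 on chromosome 12, from 68248242 to 68253604 on GRCh38.p14, and the platform annotation gives both probes the same transcript record and Entrez Gene 50616. The probes are ILMN_1735208, which had the higher mean and represents the gene in the fit across genes, and ILMN_2100046. The position of each probe in the transcript was not used here, and the levels of different probes cannot be set against each other. No IL22 sequence was used here.

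IL22 was detected with ILMN_1735208 on all 12 arrays. On the deposited scale, which still holds background signal, it read 1262, 1032 and 1044 units on combination arrays A, B and C, 958.7, 889.3 and 918.2 units on the sorafenib arrays, 2833, 1670 and 1974 units on the perifosine arrays, and 3696, 2223 and 2248 units on the control arrays. All 6 arrays with sorafenib were therefore below all 6 arrays without it, and the perifosine and control arrays overlapped. In such bulk samples, fewer cells that make the transcript and less of it per cell cannot be told apart.

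On the same scale ILMN_2100046 read 844.0, 719.8 and 590.7 units on combination arrays A, B and C, 781.1, 671.6 and 673.4 units on the sorafenib arrays, 1673, 1162 and 1043 units on the perifosine arrays, and 1718, 1184 and 1380 units on the control arrays. Untreated L-540 cells were thus above background with both probes on all 3 arrays. Array A was the highest of its group with both probes in all 4 groups.

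After background correction and quantile normalization, the log2 intensity of ILMN_1735208 was 9.54, 8.78 and 9.29 on combination arrays A, B and C. It was 9.20, 8.70 and 8.89 on the sorafenib arrays, 11.23, 10.47 and 10.58 on the perifosine arrays, and 11.57, 10.81 and 10.69 on the control arrays. The group means were 9.20 ± 0.38 with the combination, 8.93 ± 0.25 with sorafenib, 10.76 ± 0.41 with perifosine and 11.02 ± 0.48 in control cells (SD, n = 3 each). The highest array with sorafenib, at 9.54, stood below the lowest array without it, at 10.47.

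ILMN_2100046 gave the same division of the arrays. Its log2 intensity was 8.55, 6.57 and 7.54 on combination arrays A, B and C, and 8.55, 7.90 and 7.80 on the sorafenib arrays. It was 10.23, 9.75 and 9.25 on the perifosine arrays and 10.17, 9.60 and 9.70 on the control arrays. The group means were 7.56 ± 0.99, 8.08 ± 0.41, 9.75 ± 0.49 and 9.82 ± 0.30 for combination, sorafenib, perifosine and control (SD, n = 3 each). It was detected on 11 of 12 arrays. The exception was combination array B, where the authors' detection p-value was 0.1976. The highest array with sorafenib, at 8.55, was again below the lowest without it, at 9.25.

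**Figure D1:**
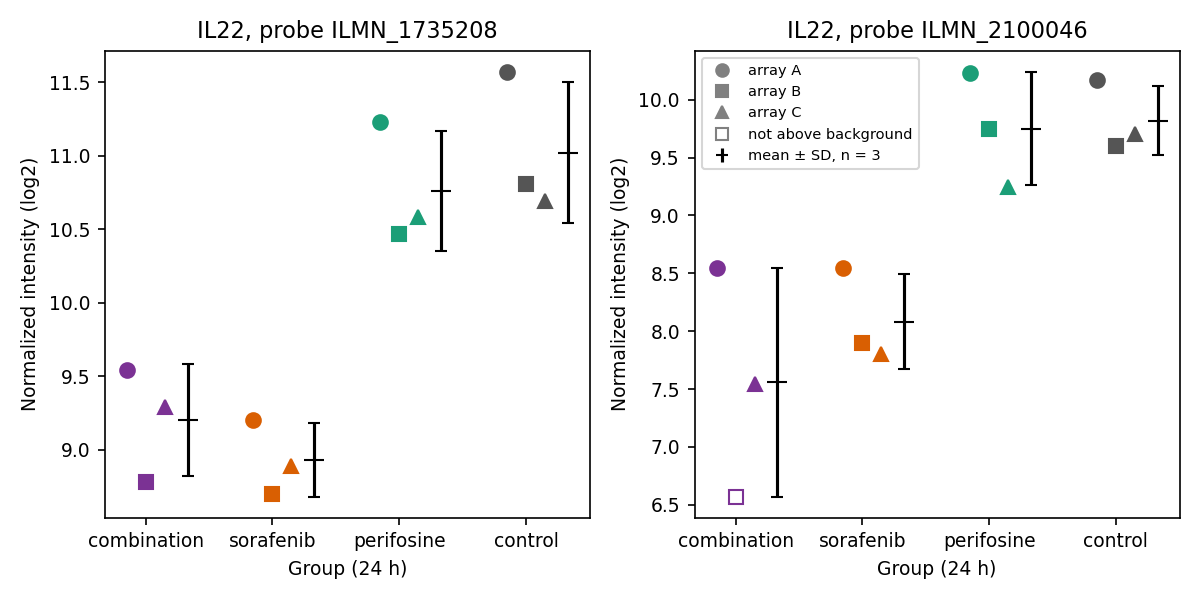
Normalized log2 intensity (vertical axes) of the 2 IL22 probes on each of the 12 arrays, by group, with the mean ± SD of 3 arrays beside the points. Symbols mark arrays A, B and C, and the open symbol is combination array B, where ILMN_2100046 was not above background. With ILMN_1735208 the arrays with sorafenib reach 9.54 at most and those without it 10.47 at least.

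The order of the group means with ILMN_1735208 was control, perifosine, combination, sorafenib. With ILMN_2100046 it was control, perifosine, sorafenib, combination. Neighbours within a pair, perifosine with control and combination with sorafenib, overlapped with both probes and were not separated beyond the spread of the arrays. The gap lay between the groups with and the groups without sorafenib. The probes correlated by 0.58 over the 6 arrays with sorafenib and by 0.80 over the 6 without it (Pearson, a description).

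IL22 was lower with sorafenib than in control cells by a log2 difference of -2.09 ± 0.286 (SE of the limma fit, 95% interval -2.72 to -1.47), which leaves 23.4% of the control intensity and is 4.27-fold lower. The combination differed from control by -1.82 ± 0.286 (95% interval -2.44 to -1.19), or 3.52-fold. These comparisons share the control arrays. The combination and perifosine groups, which share no array with the comparison of sorafenib and control, differed by -1.56 ± 0.286 (95% interval -2.18 to -0.93), or 2.94-fold. Between arrays of the same letter the difference of sorafenib and control was -2.37, -2.10 and -1.80 for A, B and C, and that of the combination and perifosine was -1.69, -1.68 and -1.29.

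Perifosine alone differed from control by -0.26 ± 0.286 with ILMN_1735208, and its 95% interval from -0.89 to 0.36 includes 0. Arrays of the same letter, which deviated together in these groups, differed by -0.34, -0.34 and -0.10, and with the letters as a block the interval was -0.60 to 0.08. With ILMN_2100046 the same-letter differences were 0.07, 0.15 and -0.45. With ILMN_1735208 the combination differed from sorafenib by 0.28 ± 0.286 (95% interval -0.35 to 0.90). The sorafenib difference in the presence of perifosine minus that in its absence was 0.54 ± 0.404 with this probe (95% interval -0.35 to 1.42). With ILMN_2100046 it was -0.45 ± 0.604 (95% interval -1.77 to 0.87). These intervals include 0 but also sizeable differences, so they do not show that perifosine left IL22 unaltered.

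ILMN_2100046 gave -1.74 ± 0.427 for sorafenib minus control, -2.27 ± 0.427 for the combination minus control and -2.19 ± 0.427 for the combination minus perifosine (SE). Its values for perifosine minus control and for the combination minus sorafenib were -0.08 ± 0.427 and -0.53 ± 0.427. The probes thus differed in the sign of the combination minus sorafenib. They also differed in the sign of the sorafenib difference with perifosine minus that without it. Without combination array B, a choice made after the values were seen, ILMN_2100046 gave -0.04 ± 0.371 for the combination minus sorafenib and -1.78 ± 0.371 for the combination minus control. ILMN_1735208 then gave 0.49 ± 0.301 and -1.61 ± 0.301.

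**Figure D2:**
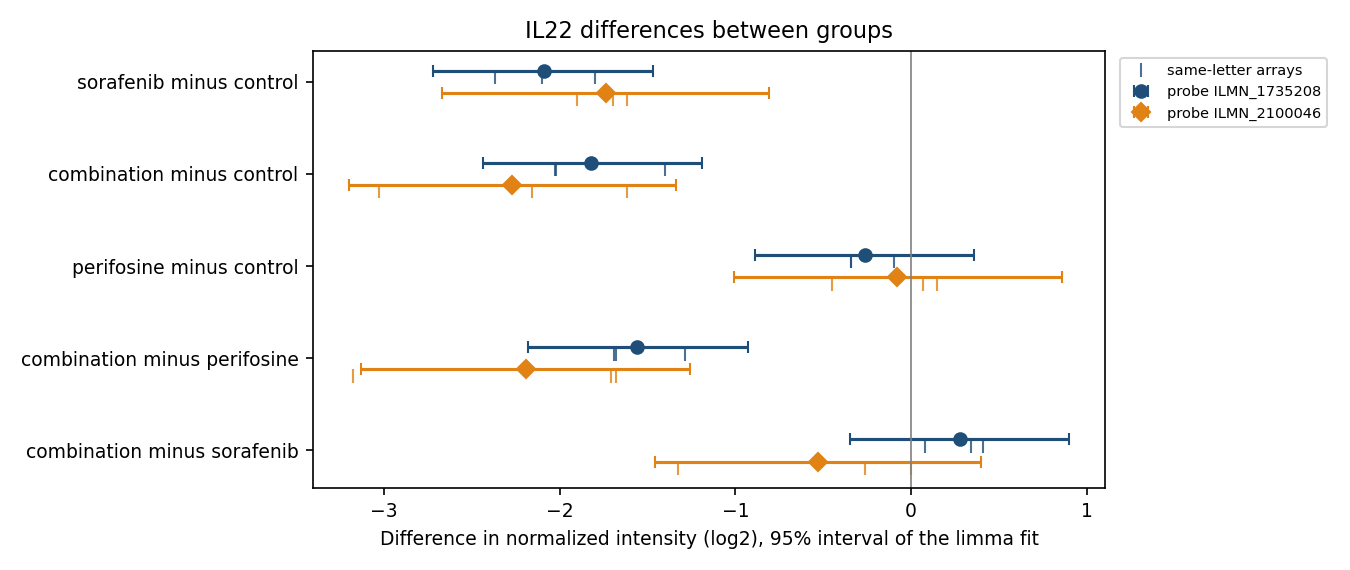
Differences in normalized log2 intensity between groups (horizontal axis) for both IL22 probes, with the 95% interval of the limma fit. Short ticks show the differences between arrays of the same letter. The 3 differences that set groups with sorafenib against groups without it lie below 0, from -2.27 to -1.56, and the other 2 have intervals that include 0.

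The size of the IL22 difference depended on the background correction, whereas its direction did not. Without background correction the log2 difference of sorafenib and control was -1.43 ± 0.191 (SE), that of the combination and control -1.27 ± 0.191, and that of the combination and perifosine -1.06 ± 0.191. The authors' normalized table gave the same values to 2 decimals. On the deposited scale the mean was 922.1 ± 34.9 units with sorafenib and 2722 ± 844 units in control cells (SD, n = 3 each), a 2.95-fold difference.

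**Figure D3:**
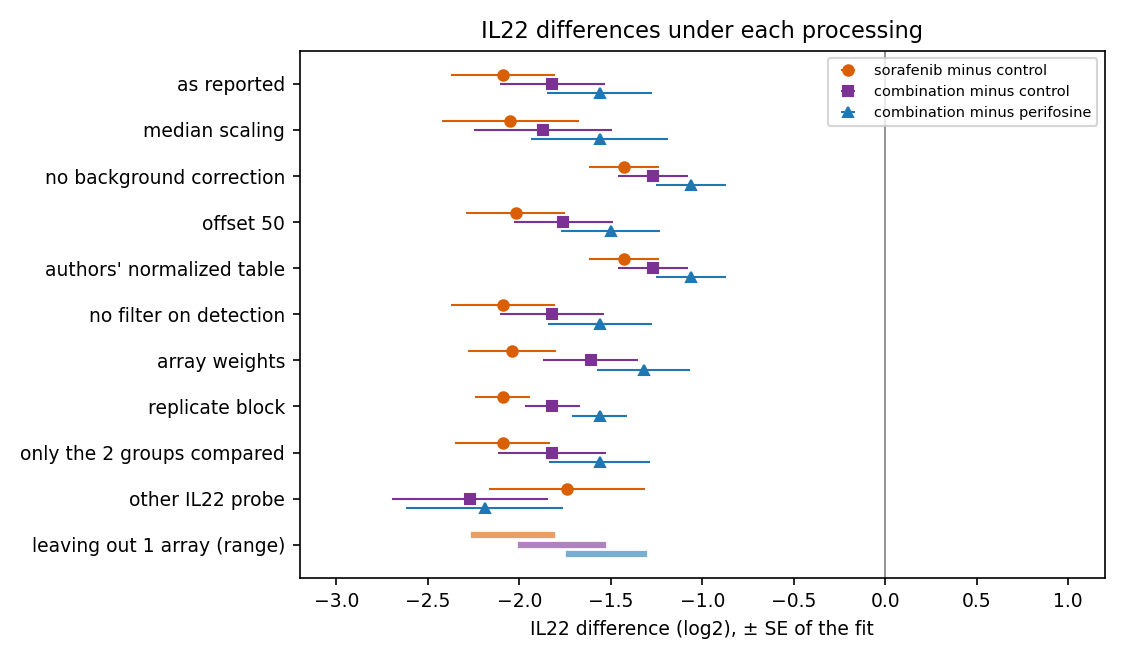
IL22 differences (horizontal axis, log2, ± SE) under each processing, with the range over fits that leave out 1 array in the bottom line. The 3 differences remain below 0 under every setting shown, from -2.27 for the combination minus control with the other probe to -1.06 for the combination minus perifosine without background correction.

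The difference of sorafenib and control was lower than that of IL22 for SNORA62, a small nucleolar RNA gene detected on all arrays of both groups, at -2.25, which did not pass (limma, adjusted p = 0.178). Genes not above background in 1 of these groups have only a bound and were not ranked. More genes had lower values than IL22 in the other comparisons. For the combination minus control there were 8, of which H1-2 alone passed (-2.27, limma, adjusted p = 0.0168). For the combination minus perifosine there were 17, counting SOCS3, which was not above background with the combination. HMGCS1 was among those that passed there (-1.91, adjusted p = 0.011). The genes named here were chosen after their values were seen.

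The genes with the pattern most like that of IL22 were found by Pearson's correlation of log2 intensities with ILMN_1735208 over the 12 arrays, as a description. The arrays fall into those with and those without sorafenib, and a gene with a like difference between these sets has a high correlation for that reason alone. The 8 most alike were FURIN (0.950), HLX (0.949), CDT1 (0.945), H2BC12 (0.942), TNFRSF8 (0.937), H1-2 (0.936), H4C8 (0.935) and HGC6.3 (0.933).

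FURIN encodes a proprotein convertase, and its log2 differences were -0.76 for sorafenib minus control and -0.91 for the combination minus control. HLX encodes a homeobox transcription factor of haematopoietic cells, with differences of -1.65 and -1.80. CDT1, a licensing factor of DNA replication, had differences of -0.83 and -0.70. TNFRSF8 encodes CD30, the surface receptor by which Hodgkin cells are recognised, with differences of -0.98 and -0.81. The other measured Hodgkin and Reed-Sternberg markers did not go with it. For sorafenib minus control FUT4 had 0.02, FSCN1 0.18 and CD70 0.20, and none passed (limma, adjusted p from 0.675 to 0.966). H2BC12, H1-2 and H4C8 encode histones H2B, H1 and H4, and their values are uncertain because probes of histone genes can bind near-identical copies.

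TNFRSF8 had log2 intensities of 9.30, 9.08 and 9.21 on combination arrays A, B and C and 9.29, 8.86 and 8.93 on the sorafenib arrays. It had 9.78, 9.53 and 10.01 on the perifosine arrays and 10.26, 9.72 and 10.04 on the control arrays. As with IL22, no array with sorafenib reached the lowest array without it. That separation follows in large part from the choice of TNFRSF8 by its correlation with IL22 on the same arrays.

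After the group means were subtracted, which leaves only the scatter of arrays within groups, the correlation with IL22 was 0.97 for H2BC12, 0.90 for H4C8 and HGC6.3, 0.87 for HLX and H1-2, and 0.84 for FURIN. It was lower for TNFRSF8 (0.60) and CDT1 (0.35). The second IL22 probe had 0.80. Array A was the highest of its group in every group for H2BC12, H4C8, HGC6.3, HLX and FURIN, as for both IL22 probes. These correlations thus include a deviation shared by the A arrays, and how far it accounts for them was not tested.

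The 4 genes most unlike IL22 were IRAG2 (-0.968), STAT4 (-0.958), POGLUT1 (-0.952) and TLN2 (-0.952). IRAG2 encodes a membrane protein of lymphoid cells, POGLUT1 a glucosyltransferase that modifies NOTCH receptors, and TLN2 a talin that links integrins to actin. STAT4, the transcription factor that carries interleukin 12 signals in T and NK cells, had 11.02, 11.05 and 11.08 on combination arrays A, B and C and 10.78, 11.17 and 10.97 on the sorafenib arrays. It had 10.04, 10.11 and 10.01 on the perifosine arrays and 9.58, 9.81 and 10.03 on the control arrays. Its groups with and without sorafenib did not overlap either, in the opposite direction, which again follows in large part from how it was picked.

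**Figure D4:**
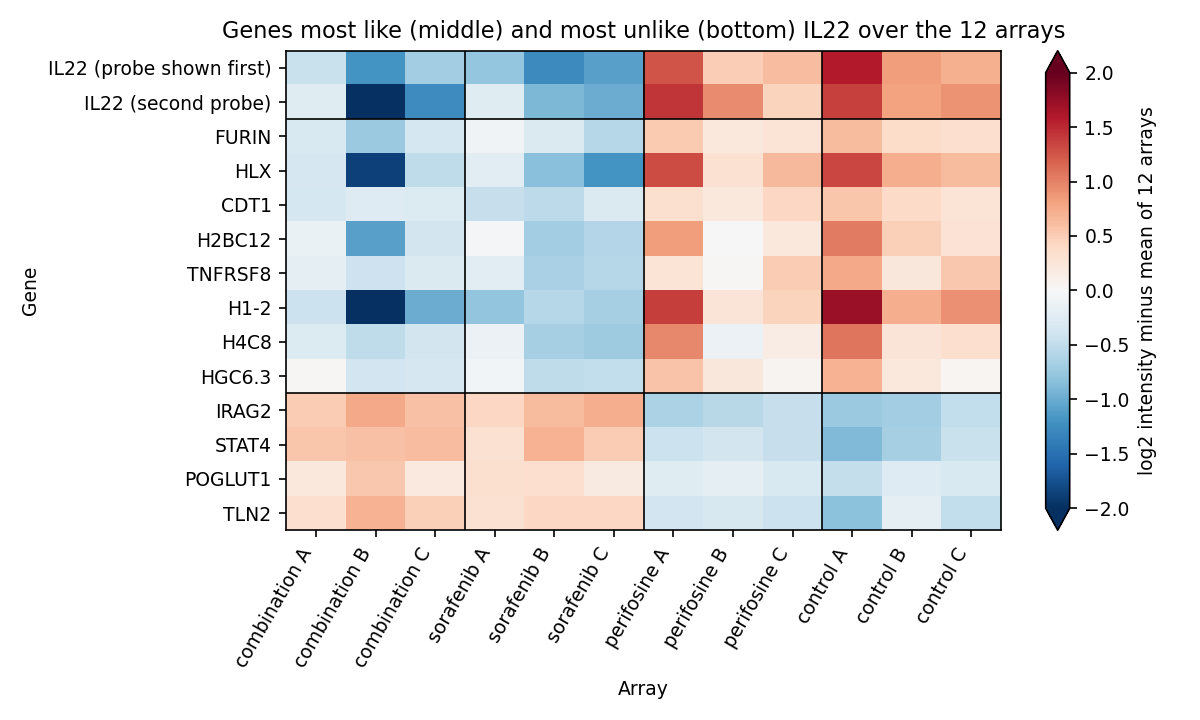
Log2 intensity minus the mean of the 12 arrays for both IL22 probes, the 8 genes most like IL22 and the 4 most unlike it (rows), by array (columns, combination first and control last). The colour scale ends at -2 and 2. IL22 and the 8 genes are mostly blue on the arrays with sorafenib and red on those without it, and the 4 genes are the reverse.

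IL22 lies in a cluster of cytokine genes. Its nearest protein-coding neighbour in RefSeq was IL26, another member of the interleukin 10 family, 22.4 kb away, followed by MDM1 at 41.0 kb on the other side and IFNG, the interferon gamma gene, at 88.5 kb. IL26 was detected on all 12 arrays, and IFNG on none. IL26 had log2 intensities of 10.29, 9.39 and 9.68 on combination arrays A, B and C, 9.47, 10.21 and 9.54 on the sorafenib arrays, 10.78, 9.76 and 10.08 on the perifosine arrays and 10.81, 10.23 and 9.90 on the control arrays. Its groups overlapped, and neither the difference of sorafenib and control, -0.57 ± 0.333, nor that of the combination and control, -0.53 ± 0.333, passed (SE, limma, adjusted p = 0.417 and 0.403).

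The other neighbours did not pass in any of the 5 comparisons. For sorafenib minus control the log2 differences were 0.10 for DYRK2, -0.02 for MDM1, -0.01 for RAP1B and -0.18 for NUP107 (limma, adjusted p from 0.701 to 0.985). RAP1B had -0.92 for the combination minus control (adjusted p = 0.0844). It was detected on 2 of 3 combination arrays.

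The other genes around interleukin 22 signalling and its control were taken as 9 lists of 108 genes in all, of which 103 had a probe with 1 symbol and 48 were measured, that is, passed the detection filter. The lists were chosen with earlier results of these data known, so their counts beside the shares of all genes are a description. With limma and Benjamini-Hochberg adjustment over all 8092 genes, 2 of the 48 were lower with sorafenib than in control cells and 0 higher, beside 0.519% of all genes lower and 0.952% higher (1.47% in either direction). For the combination against control 3 were lower and 0 higher, beside 1.1% and 2.31% of all genes (3.41% in either direction). Without background correction and with the authors' table it was 5 lower and 3 higher, and with the letters as a block 8 lower and 2 higher. For the combination against perifosine 3 were lower and 0 higher, beside 0.803% and 1.58% (2.39% in either direction). That became 5 lower and 2 higher without background correction and with the authors' table, and 5 lower and 3 higher with the block. The median difference of the 48 was -0.23, -0.17 and -0.14 in these comparisons, against 0.00, 0.01 and 0.00 over all genes. For perifosine against control none of the 48 passed in limma, beside 0% of all genes (4 at an unadjusted p under 0.05, beside 2.45% of all genes). With array weights 2 of all genes passed in that comparison and none of the 48. For the combination against sorafenib none passed either, beside 0% of all genes (1 at an unadjusted p under 0.05, beside 2.03% of all genes).

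The receptor and its signalling chain gave no call in limma with the processing used here. IL22RA1, the chain that makes a cell responsive to interleukin 22, and IL22RA2, the soluble decoy receptor, were not detected on any array. IL10RB, the shared second chain, was detected on all 12 arrays, with 10.49, 10.32 and 10.23 on combination arrays A, B and C and 10.21, 9.94 and 10.02 on the sorafenib arrays. It had 8.97, 9.59 and 9.88 on the perifosine arrays and 9.68, 9.55 and 9.77 on the control arrays. Its difference was 0.68 ± 0.207 for the combination minus control and 0.87 ± 0.207 for the combination minus perifosine (SE, adjusted p = 0.0935 and 0.0546). IL10RB passed, as higher, in both comparisons without background correction and with the authors' table, and against perifosine also with an offset of 50 and with the letters as a block.

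The kinases and transcription factors of the receptor gave smaller values. For the combination minus control JAK1 had 0.47 ± 0.136 and TYK2 0.37 ± 0.159, and STAT3 had -0.39 ± 0.228 (SE, limma, adjusted p = 0.0829, 0.209 and 0.355). STAT5A had -0.37 ± 0.341 and STAT5B 0.25 ± 0.214. JAK1 passed, as higher, for the combination against control without background correction, with the authors' table and with the letters as a block. Of the 7 measured genes of this list 3 had an unadjusted p under 0.05 for the combination against control, beside 20.9% of all genes.

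Targets of STAT3 and STAT5, which the same signals induce in lymphocytes, gave most of the calls. All 12 genes of this list were measured. Against control 2 fell with sorafenib, 3 fell with the combination and 0 rose, beside 1.47% and 3.41% of all genes in either direction. For the combination against perifosine 2 fell and 0 rose, beside 2.39% of all genes. CISH, a feedback inhibitor of cytokine receptors, had 9.74, 9.44 and 9.75 on combination arrays A, B and C and 10.24, 9.74 and 9.53 on the sorafenib arrays. It had 10.79, 10.96 and 11.01 on the perifosine arrays and 11.08, 10.80 and 10.60 on the control arrays, so that no array with sorafenib reached one without it. CISH differed by -0.99 ± 0.199 for sorafenib minus control, -1.18 ± 0.199 for the combination minus control and -1.27 ± 0.199 for the combination minus perifosine (SE, limma, adjusted p = 0.0359, 0.0132 and 0.0112).

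PIM2, a survival kinase gene, had 12.46, 12.53 and 12.25 on combination arrays A, B and C, 12.71, 12.36 and 12.46 on the sorafenib arrays and 13.46, 13.02 and 13.33 on the control arrays. It fell by 0.76 on the log2 scale with sorafenib and by 0.86 with the combination (SE 0.157 each, limma, adjusted p = 0.0399 and 0.0174). Its relative PIM1 had -0.96 ± 0.228 for the combination minus control (adjusted p = 0.0436) and -0.98 ± 0.228 for sorafenib minus control (adjusted p = 0.0544). For the combination minus perifosine PIM1 had -0.84 ± 0.228 and PIM2 -0.65 ± 0.157, and neither passed (SE, limma, adjusted p = 0.0762 and 0.0557). Both passed there, as lower, without background correction, with the authors' table, with array weights and with the letters as a block. PIM2 passed also with an offset of 50. With the letters as a replicate block PIM1 and the AP-1 gene JUNB also fell with sorafenib, 4 list genes in place of 2. The PIM1 call against control was also made without background correction, with the authors' table, with an offset of 50 and with array weights. It was made too without sorafenib array A or without combination array C.

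These calls depend on the scaling and on few arrays. With median scaling in place of quantile normalization no list gene passed in any of these comparisons. The count for sorafenib against control was 0 without control array A, B or C, without perifosine array B or C or without sorafenib array B or C, and 1 without perifosine array A. For the combination against control it was 1 without control array A or C or without combination array C. For the combination against perifosine it was 0 without perifosine array B or C and 1 without combination array A, B or C. CISH passed for the combination against control in all 12 fits that left out 1 array, and its difference ran there from -1.29 to -1.05. The calls of PIM1 and PIM2 in that comparison were lost in 10 and 3 of the 12 fits. For sorafenib against control the calls of CISH and PIM2 were lost in 7 and 9. For the combination against perifosine those of CISH and the cytokine gene OSM were lost in 2 and 5.

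SOCS3, the inhibitor that limits STAT3 signalling, was detected on none of the 6 arrays with sorafenib and on all 6 without it. Its log2 intensities were 6.86, 6.51 and 6.58 on combination arrays A, B and C, 6.08, 6.58 and 6.64 on the sorafenib arrays, 9.21, 7.76 and 8.36 on the perifosine arrays, and 9.68, 7.11 and 7.85 on the control arrays. It was at least 2.04-fold lower with sorafenib and at least 1.85-fold lower with the combination than in control cells, and at least 2.17-fold lower with the combination than with perifosine. None of these passed (limma, adjusted p = 0.117, 0.13 and 0.103). The bounds depended on control array A and on the background correction, as settings added after the values were seen showed. Without control array A they were 1.23-fold for sorafenib and 1.11-fold for the combination against control, and the combination then passed against perifosine (adjusted p = 0.0288). Without background correction the bounds were 1.34, 1.30 and 1.34-fold in these comparisons. For such a bound, an array below background was given the lowest signal of its detected probes if that exceeded its own.

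OSM, the gene of the cytokine oncostatin M, had 9.82, 9.71 and 9.80 on combination arrays A, B and C and 10.65, 10.72 and 10.92 on the perifosine arrays, a difference of -0.99 ± 0.188 (SE, limma, adjusted p = 0.0243). Against control it had -0.46 ± 0.188 with the combination, -0.28 ± 0.188 with sorafenib and 0.52 ± 0.188 with perifosine alone. None of these passed (limma, adjusted p = 0.187 with the combination and 0.507 with sorafenib). The difference of the combination and perifosine thus also holds the higher values with perifosine alone. MYC was represented by a probe with -0.07 for sorafenib minus control, and its other measured probe had -0.72, neither of which passed.

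Of the T helper cytokines, 13 of 15 had a probe with 1 symbol and 2 were measured. TNF had 6.85, 7.34 and 7.43 on combination arrays A, B and C, where it was detected on 1 of 3, and 8.02, 8.57 and 8.39 on the perifosine arrays, a difference of -1.12 ± 0.252 (SE, limma, adjusted p = 0.0421). The TNF difference was -0.38 without background correction, and the call was lost in 9 of 12 fits that left out 1 array. Against control TNF had -0.60 ± 0.252 with sorafenib and -0.54 ± 0.252 with the combination (SE, limma, adjusted p = 0.25 each). With perifosine alone it had 0.58 ± 0.252 against control. None of these 3 differences passed. LTA, the lymphotoxin alpha gene, had -0.67 ± 0.24 for sorafenib minus control and did not pass (adjusted p = 0.178). IL17A, IL17F, IL21, IL13 and IL2 were not detected on any array. Within the interleukin 10 family, IL10 and IL26 were measured, and IL10 had -0.16 ± 0.214 for sorafenib minus control and 0.01 ± 0.214 for the combination minus control, neither of which passed. Of the family's receptors, IL20RB had 0.58 ± 0.209 and IL10RA -0.42 ± 0.213 for sorafenib minus control (SE, limma, adjusted p = 0.178 and 0.342).

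Among the transcription factors that control IL22 in lymphocytes, 9 of 21 were measured and none passed in limma with the processing used here. At an unadjusted p under 0.05 there were 2 for sorafenib against control and 3 for the combination against control, beside 16.9% and 20.9% of all genes. AHR, the receptor of aromatic ligands, had a difference of -0.10 ± 0.158 for sorafenib minus control and -0.03 ± 0.158 for the combination minus control. Its targets TIPARP and NQO1 had 0.09 and -0.12 for sorafenib minus control. BATF, an AP-1 factor needed for T helper cell differentiation, had -0.46 ± 0.237 and -0.65 ± 0.237 in these comparisons. RUNX3 had 0.34 ± 0.149 and 0.53 ± 0.149, and GATA3 had -0.26 ± 0.169 and -0.42 ± 0.169 (SE, limma, adjusted p from 0.0777 to 0.936 for these genes). JUNB, an AP-1 subunit, had the lowest values of the list, -0.88 ± 0.388 and -0.75 ± 0.388 (adjusted p = 0.277 and 0.298). For the combination against control RUNX3 passed, as higher, without background correction, with the authors' table and with the letters as a block, and BATF and JUNB passed, as lower, with the block. HIF1A was detected on 2 of 3 arrays in each group.

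Receptors of the signals that induce IL22 gave no call in limma either with this processing, with 10 of 16 measured. At an unadjusted p under 0.05 there were 2 for sorafenib against control and 3 for the combination against control, again beside 16.9% and 20.9% of all genes. IL2RA, the alpha chain of the interleukin 2 receptor, had -0.56 ± 0.187 for sorafenib minus control and -0.68 ± 0.187 for the combination minus control (SE, adjusted p = 0.146 and 0.0701). RBPJ, the nuclear effector of NOTCH, had -0.66 ± 0.191 for the combination minus control (adjusted p = 0.0829). Both passed, as lower, for the combination against control without background correction, with the authors' table and with the letters as a block, and IL2RA also with array weights. IL6R, a receptor chain for interleukin 6, was detected on none of the sorafenib arrays and on 2 of 3 control arrays. Calculated as for SOCS3, it was 1.31-fold lower with sorafenib than in control cells (limma, adjusted p = 0.316). This is not a firm bound, since not every control array was above background. In settings added after the values were seen it was 1.08-fold without background correction and 1.18-fold without control array A. For the combination against control IL6R passed with the block. IL23R was not detected on any array. Of the genes that interleukin 22 induces in epithelium and liver, S100A8 alone of 16 was measured, on 1 array of each group.

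**Figure D5:**
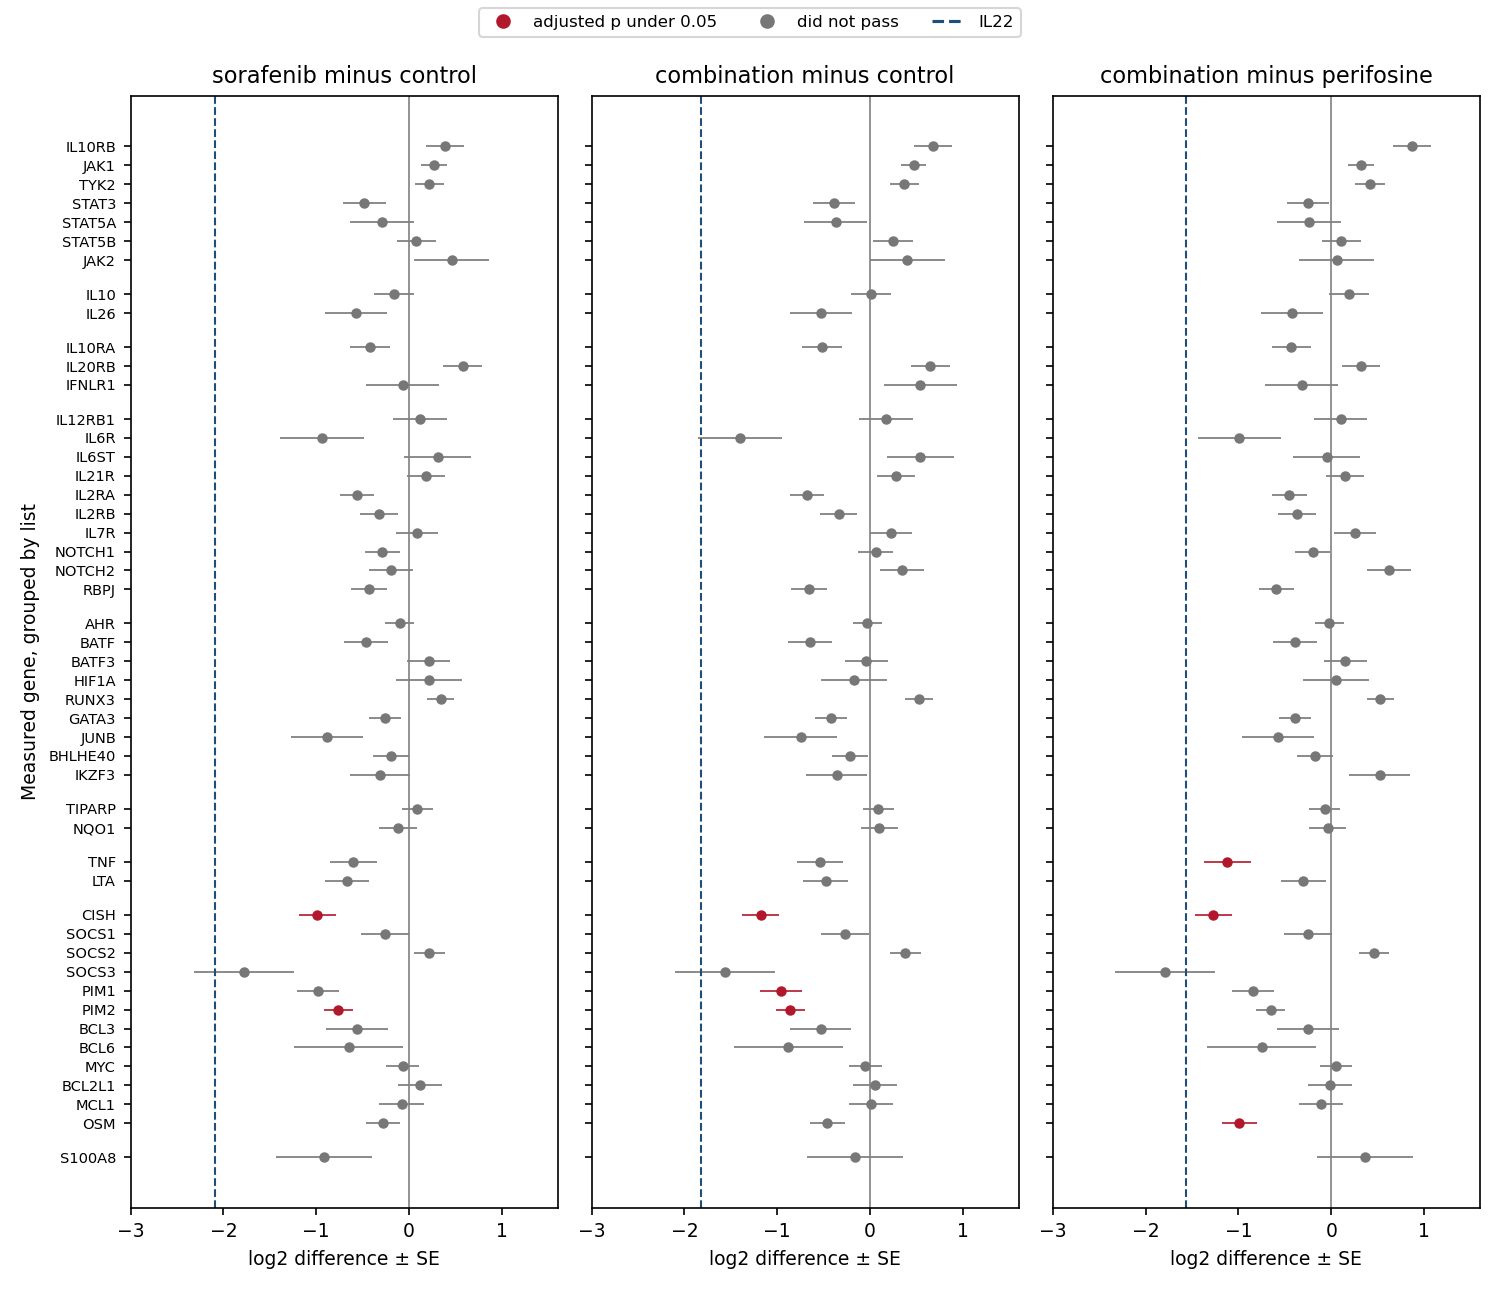
Log2 differences ± SE (horizontal axes) of the 48 measured list genes in 3 comparisons, grouped by list from receptors at the top to epithelial targets at the bottom. Red points passed the adjusted p threshold of 0.05 and the dashed line is IL22. CISH is red in all 3 panels. SOCS3 and IL6R were not above background on the arrays with sorafenib, so their points are fitted values that cannot be ranked.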

How the data were processed

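Biotinylated cRNA was made from total RNA for 12 arrays of L-540, per the labels' protocols. The deposited unnormalized table holds 1 mean bead intensity per probe and array and a detection p-value against negative-control beads, per the file headers. The submitters' processing notes name BeadStudio and give no version. The authors also deposited normalized intensities on a linear scale. They lie within 0.0167 log2 units of a quantile normalization of the unnormalized intensities without background correction.

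Values were corrected and normalized with neqc (limma 3.58.1, R 4.3.3, offset 16) and expressed as log2. The filter kept probes whose detection p-value was under 0.01 on 3 or more arrays, and 1 probe per gene (highest mean), which left 8092 genes. A model with a mean per group was fitted with lmFit and eBayes, tested on simulated data, with Benjamini-Hochberg adjustment and a threshold of 0.05. Of the probes, 28098 had 1 gene symbol, 13 several and 20692 none. The number of arrays limits the precision.

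Named were IL22, the list genes that passed, receptor, signalling and transcription factor genes of the lists, the 8 genes most like and 4 most unlike IL22, and the 3 nearest protein-coding genes on each side. The gene and the lists were chosen with earlier results of these data known. Arrays of the same letter deviated together in sorafenib and control (0.28, 0.33 and 0.19), perifosine and control (0.35, 0.32 and 0.27) and perifosine and sorafenib (0.39, 0.29 and 0.23), correlations of residuals across genes.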

Additional observations from a re-analysis of the deposited data

How the results depend on the processing

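The IL22 differences kept their direction in the 3 comparisons of groups with and without sorafenib under all 21 alternatives each. Leaving out 1 array gave -2.25 to -1.82 for sorafenib minus control, -1.99 to -1.54 for the combination minus control, -1.73 to -1.32 for the combination minus perifosine, -0.50 to 0.01 for perifosine minus control and 0.11 to 0.49 for the combination minus sorafenib. No background correction and the authors' table gave -1.43, -1.27 and -1.06 for the first 3, and the other probe gave -2.27 for the combination minus control, -2.19 for the combination minus perifosine and -0.53 for the combination minus sorafenib.

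The counts of list genes called depended on the processing. For sorafenib against control, the combination against control and the combination against perifosine they were 2, 3 and 3, and they were 0, 0 and 0 with median scaling and with only the 2 groups compared, and 0, 1 and 1 without the filter on detection. Without background correction and with the authors' table they were 3, 8 and 7, with an offset of 50 they were 3, 3 and 5, and with array weights 3, 4 and 5. Leaving out 1 array gave 0 to 3, 1 to 4 and 0 to 3. For perifosine against control the count was 0 under all 21 alternatives. Over all genes 8, 4 and 3 passed with median scaling, 292, 547 and 410 without background correction, and 119, 276 and 193 as reported. The cause was not tested, except that fits of 2 groups hold 6 arrays in place of 12.

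With the letters as a replicate block the counts were 4, 10 and 8, and 404, 650 and 501 over all genes; the IL22 differences kept their values. Residuals of the combination correlated with those of control by 0.28, -0.15 and -0.10 for A, B and C and with those of perifosine by 0.23, -0.16 and 0.08, so the letters are not shown to pair there. The 8 genes most like IL22 were all among the first 100 with median scaling, with the authors' table and without combination array B. Of them, 6 were with the other IL22 probe and 4 after group means were subtracted. The 4 most unlike genes were all among the last 100 with the authors' table, with the other IL22 probe and without combination array B. With median scaling 3 were, and the 4 correlations ran from -0.77 to -0.59. After group means were subtracted 0 were, with correlations from -0.78 to -0.63. All these settings were added after seeing the data.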
